A study of Mus musculus with 12 samples.

Results

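The genes described here are those of the main hormones and shared products of the enteroendocrine cells, measured in mouse duodenum: the peptide hormone genes Gcg, Nts, Cck, Gip, Sct, Ghrl, Sst and Pyy, the serotonin-synthesis gene Tph1 and the secretory granule gene Chga. Each was chosen by name, with earlier results of these data known, as the array feature carrying that single gene symbol. They are 10 of the 19938 genes tested. Each of the 10 had 1 feature.

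The 4 groups were Onecut-2 knockout at postnatal day 30, wild type at day 30, Onecut-2 knockout at day 15 and wild type at day 15, all duodenum of untreated mice of strain 129 and mixed sex. Each group had 3 arrays, 12 in all. Onecut-2 (Onecut2) encodes a transcription factor with a cut domain and a homeodomain. An array held RNA pooled from 5 to 8 mice, so the spread between arrays is the spread between pools and is expected to understate that between single mice. The labels do not say how the gene was ablated or in which cells.

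Enteroendocrine cells are scattered single cells of the gut lining that sense food in the lumen and release hormones at their base. Subtypes differ in their hormone and in where along the gut they lie: ghrelin, somatostatin, secretin, GIP and cholecystokinin are classically proximal products, while proglucagon products, peptide YY and neurotensin are known mainly from the distal small intestine and colon. Enterochromaffin cells, the most numerous subtype, make serotonin. A whole piece of gut was measured, so a lower value from fewer cells of a type and one from less RNA per cell cannot be told apart.

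The values are log2 expression values (a difference of 1 is a doubling), and array medians lay between 7.20 and 7.25. Onecut2 read 8.24, 8.25 and 8.18 in knockout at day 30, against 9.63, 9.50 and 9.62 in wild type at day 30. At day 15 it read 8.09, 8.13 and 8.20 in knockout and 9.55, 9.69 and 9.68 in wild type. All knockout arrays lay below all wild type arrays, as their labels would have it; no comparison of the probe positions with the ablated stretch was made. The duodenal and epithelial genes Pdx1, Gata4, Epcam, Vil1 and Cdx2 were at 9.67 or above on each array, while the ileal bile acid binding protein gene Fabp6 averaged between 4.81 and 4.95. Single arrays stood apart in neighbouring tissue. The mean of 9 stomach markers was 9.28 on knockout day 15 replicate 1, against 8.64 and 8.61 on the other knockout day 15 arrays, and 9.73 on wild type day 30 replicate 2, against 9.12 and 9.03 on the other arrays of that group. Pancreatic acinar markers were bright in each group (mean of 8 genes between 12.5 and 13.5), and 6 islet markers averaged 7.75 on knockout day 15 replicate 3, against 7.46 and 7.44.

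**Figure D1:**
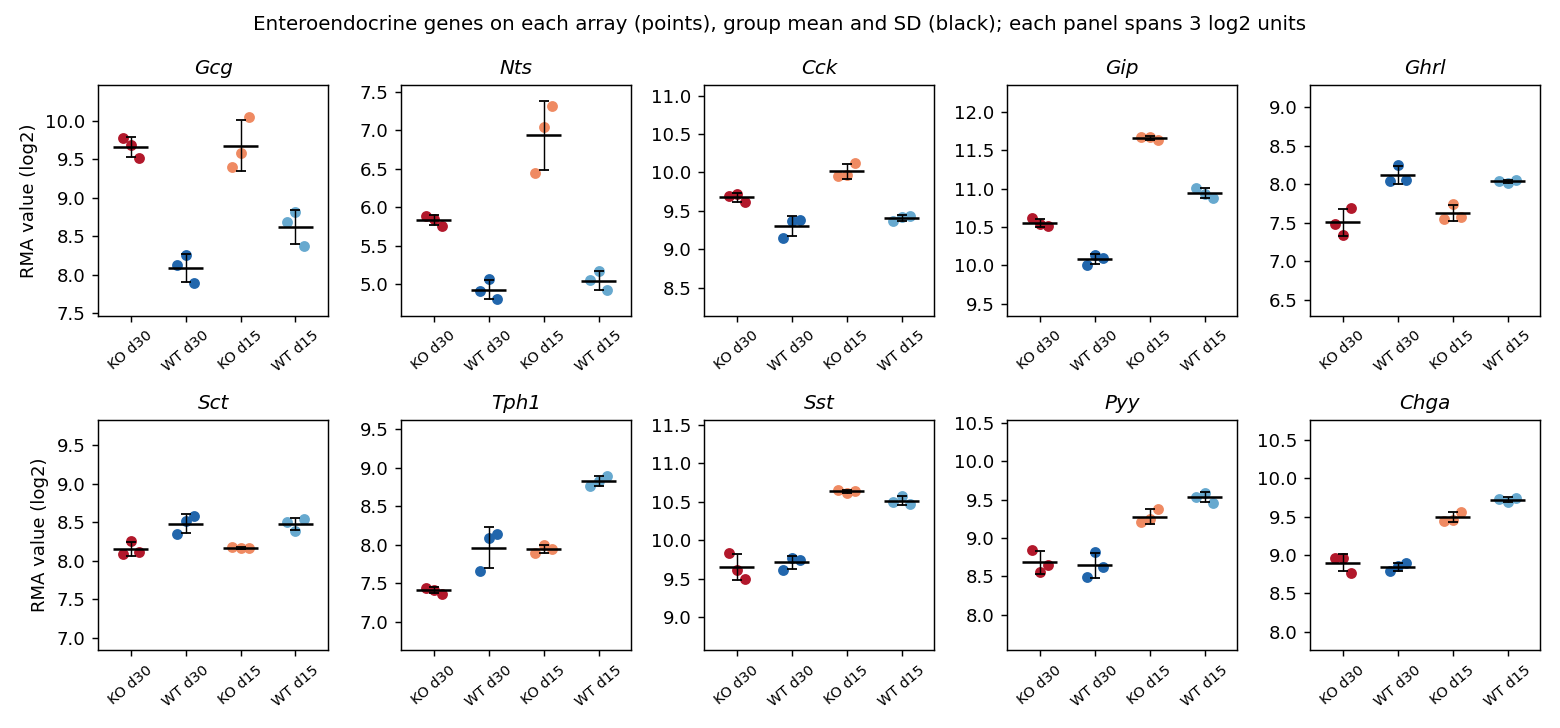
Log2 expression of the 10 genes on each array (points), with the group mean and SD in black, n = 3 arrays per group; KO is Onecut-2 knockout, WT wild type, d30 and d15 are postnatal days. Each panel spans the same range of log2 units. Gcg, Nts, Cck and Gip lie higher in knockout at both ages, and Ghrl, Sct and Tph1 lower.

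Knockout duodenum carried more RNA of 4 peptide hormone genes and less of 3 other genes of the set, at both ages. Gcg, Nts, Cck and Gip were higher, and Sct, Ghrl and Tph1 were lower. Sst, Pyy and Chga did not pass the test at either age. At day 30, 7 of the 10 genes passed (limma, Benjamini-Hochberg adjusted p under 0.05), where 1.98% of all genes did; 4 were higher, beside 1.04% of all genes, and 3 lower, beside 0.943%. At day 15, 7 of 10 passed, where 3.83% of all genes did; 4 were higher, beside 1.81% of all genes, and 3 lower, beside 2.03%. The 7 genes were the same at both ages, each in the same direction. This set and the gene lists further on were chosen with earlier results of these data known. Their counts beside the share of all genes are therefore no independent test. With only the 6 arrays of day 30 in the fit, 4 genes passed there, and Cck, Sct and Tph1 did not (adjusted p = 0.0710, 0.141 and 0.0789). The median difference of the 10 genes was 0.05 at day 30 and -0.06 at day 15, beside 0.00 and -0.01 over all genes.

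**Figure D2:**
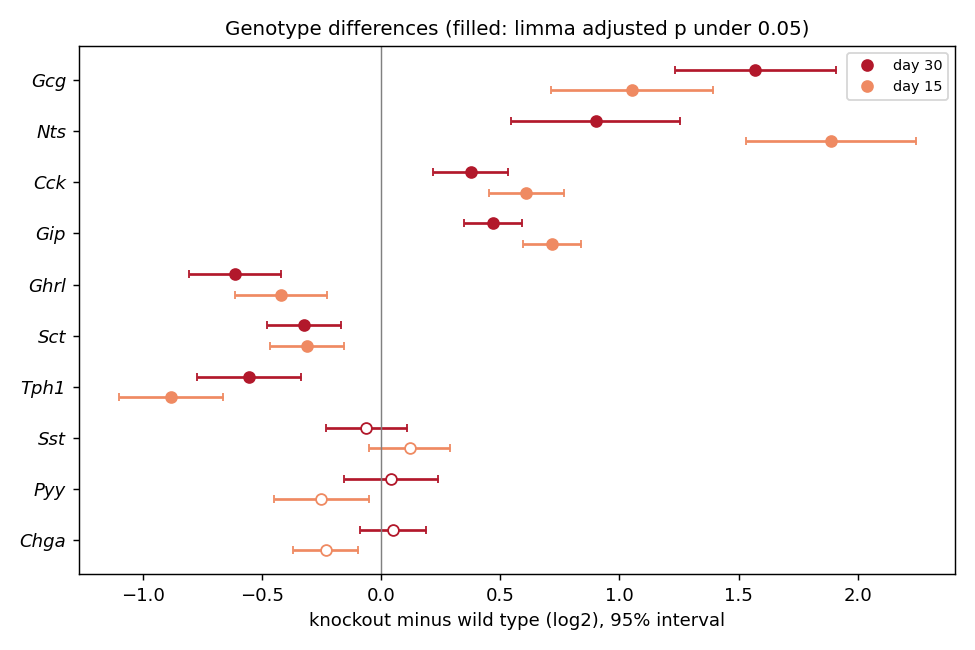
Knockout minus wild type difference (log2) for each gene at day 30 (dark) and day 15 (light), with the 95% interval of the single gene; filled points passed the test over 19938 genes, and open points did not. Nts has the highest value at day 15 (1.89) and Gcg at day 30 (1.57).

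Gcg encodes proglucagon, the precursor of the incretin GLP-1 and the intestinal growth factor GLP-2 in L cells, and of glucagon in the pancreas. It read 9.78, 9.68 and 9.51 in knockout at day 30, against 8.12, 8.25 and 7.89 in wild type at day 30. All 3 knockout arrays lay above all 3 wild type arrays, and the mean difference was 1.57 on the log2 scale (2.97-fold, SE 0.156, adjusted p = 0.000108). At day 15 it read 9.40, 9.58 and 10.04 in knockout and 8.68, 8.81 and 8.38 in wild type. Again no arrays of the groups overlapped, and the difference was 1.05 (2.07-fold, SE 0.156, adjusted p = 0.00208). The highest Gcg value was on knockout day 15 replicate 3, the array with more islet marker RNA, where Ins2 was at 8.18; without that array the difference at day 15 was 0.87 (adjusted p = 0.0059). Over the 6 islet markers, none passed between genotypes at either age. Both knockout groups had about the same Gcg level (9.66 ± 0.134 at day 30 and 9.67 ± 0.333 at day 15, SD), and the wild type groups followed at 8.09 ± 0.183 and 8.62 ± 0.222.

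Nts encodes neurotensin, a peptide of N cells that is released by fat. It read 5.89, 5.85 and 5.76 in knockout at day 30, against 4.91, 5.07 and 4.81 in wild type at day 30. At day 15 it read 6.44, 7.05 and 7.31 in knockout, against 5.05, 5.17 and 4.93 in wild type. The knockout arrays lay above the wild type arrays at each age. The difference was 0.90 at day 30 (1.87-fold, SE 0.164, adjusted p = 0.0121) and 1.89 at day 15 (3.70-fold, SE 0.164, adjusted p = 3.51e-05). The call at day 30 was lost without knockout day 30 replicate 1 (adjusted p = 0.0595) or wild type day 30 replicate 3 (adjusted p = 0.0662). With a mean of 5.69, Nts was the only one of the 10 among the dimmest 25% of all genes (below 6.20), where array values flatten and folds are understated.

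Cck and Gip, the genes of cholecystokinin, which empties the gallbladder, and of the insulin-releasing peptide GIP, were higher too. Cck read 9.69, 9.73 and 9.61 in knockout at day 30, against 9.15, 9.37 and 9.38 in wild type, and 9.96, 9.97 and 10.13 in knockout at day 15, against 9.36, 9.43 and 9.43 in wild type. The difference was 0.38 at day 30 (1.30-fold, SE 0.072, adjusted p = 0.0161) and 0.61 at day 15 (SE 0.072, adjusted p = 0.000351). Gip read 10.61, 10.54 and 10.51 in knockout at day 30, against 10.01, 10.13 and 10.10 in wild type, and 11.67, 11.67 and 11.63 in knockout at day 15, against 11.01, 10.93 and 10.88 in wild type. Gip was higher by 0.47 at day 30 (1.39-fold, SE 0.056, adjusted p = 0.000506) and by 0.72 at day 15 (1.64-fold, SE 0.056, adjusted p = 1.27e-05). No knockout and wild type array of an age overlapped for either gene. The Cck call at day 30 was lost in 3 of the 12 fits that left out 1 array: without knockout day 30 replicate 1 (adjusted p = 0.0720), without knockout day 30 replicate 2 (adjusted p = 0.0697) and without wild type day 30 replicate 1 (adjusted p = 0.0547).

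Tph1, whose enzyme carries out the limiting step of serotonin synthesis in enterochromaffin cells, was lower in knockout. It read 7.44, 7.42 and 7.36 in knockout at day 30, against 7.65, 8.09 and 8.14 in wild type, a difference of -0.55 (SE 0.101, adjusted p = 0.0121). At day 15 it read 7.90, 8.00 and 7.94 in knockout, against 8.77, 8.83 and 8.89 in wild type, a difference of -0.88 (SE 0.101, adjusted p = 0.000271). The groups overlapped at neither age. The call at day 30 was lost without wild type day 30 replicate 2 (adjusted p = 0.0574) or replicate 3 (adjusted p = 0.0629). Tph1 is also expressed by mast cells; of 10 mast cell markers none passed between genotypes at either age, and their mean was 6.06 in knockout at day 30 and 6.22 in wild type, and 6.36 and 6.33 at day 15. Of those markers, 5 of 10 were among the dimmest 25% of genes, and their part in the Tph1 difference was not tested.

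Ghrl and Sct, the genes of ghrelin (a hunger peptide) and secretin (the peptide that makes the pancreas secrete bicarbonate), were lower. Ghrl read 7.48, 7.34 and 7.69 in knockout at day 30, against 8.05, 8.26 and 8.05 in wild type, and 7.55, 7.74 and 7.57 in knockout at day 15, against 8.05, 8.02 and 8.06 in wild type. Its difference was -0.61 at day 30 (SE 0.089, adjusted p = 0.00266) and -0.42 at day 15 (SE 0.089, adjusted p = 0.0208). Sct read 8.09, 8.26 and 8.12 in knockout at day 30, against 8.34, 8.51 and 8.58 in wild type, and 8.18, 8.16 and 8.16 in knockout at day 15, against 8.50, 8.39 and 8.54 in wild type. Its difference was -0.32 at day 30 (SE 0.071, adjusted p = 0.0361) and -0.31 at day 15 (SE 0.071, adjusted p = 0.0304). For both genes, the knockout arrays all lay below the wild type arrays of the same age. Several of these calls lay close to the threshold and were lost when 1 array was left out, while the differences kept their sign. The Sct difference at day 30 was still -0.32 without knockout day 15 replicate 2 or 3, though its call was lost. At day 15 the Ghrl call held in 7 of the 12 fits that left out 1 array and was lost without knockout day 15 replicate 1 or 3 or any of the wild type day 15 arrays (adjusted p up to 0.0782). The Sct call at day 15 held in 7 of 12 and was lost without any of the knockout day 15 arrays or wild type day 15 replicate 1 or 3 (up to 0.123). At day 30 the Sct call held in 6 of 12 and was lost without replicate 1 or 3 of knockout day 30, 2 or 3 of wild type day 30, or 2 or 3 of knockout day 15 (up to 0.163). Ghrl is made mostly in the stomach. The stomach marker mean was 9.26 in knockout at day 30 and 9.29 in wild type, and 8.85 in knockout at day 15 and 9.10 in wild type. Stomach markers with a called genotype difference were Gkn3 and Cblif, of 9 measured, at day 30 and Gkn3 at day 15, all lower in knockout, and their part in the Ghrl difference was not tested.

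Sst, Pyy and Chga, the genes of the inhibitory peptide somatostatin, of the satiety peptide PYY and of the granule protein chromogranin A that most enteroendocrine cells share, had no called genotype difference. At day 30 the differences were -0.06 (95% interval -0.23 to 0.11) for Sst, 0.04 (-0.16 to 0.24) for Pyy and 0.05 (-0.09 to 0.19) for Chga. At day 15 they were 0.12 (-0.05 to 0.29) for Sst, -0.25 (-0.45 to -0.05) for Pyy and -0.23 (-0.37 to -0.10) for Chga. The groups of each of these 3 genes did not overlap at day 15; over the 10 genes, 10 did not overlap at day 15, where 21.3% of all genes did not, and 7 at day 30, where 15.4% did not. Chga at day 15 missed the threshold (adjusted p = 0.0662) and passed it with array weights (0.0304), with an intensity trend (0.0313), without the dimmest 25% of genes (0.0429) and without knockout day 30 replicate 3 (0.0332).

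The 250 bases upstream of the annotated start of 4 of these genes are printed below in RefSeq's GRCm38.p6, from the gene's own strand, to show what lies before genes that moved in opposite directions; Cck and Sct were picked after their matches had been seen. Capitals mark matches to ATCAAT, the core bound by cut homeodomain factors, or TGACGT, the core of the cAMP response element. Gcg lies at chr2:62483654-62483903, Nts at chr10:102490419-102490668, Cck at chr9:121495695-121495944 and Sct at chr7:141279134-141279383, all on the minus strand.
Gcg: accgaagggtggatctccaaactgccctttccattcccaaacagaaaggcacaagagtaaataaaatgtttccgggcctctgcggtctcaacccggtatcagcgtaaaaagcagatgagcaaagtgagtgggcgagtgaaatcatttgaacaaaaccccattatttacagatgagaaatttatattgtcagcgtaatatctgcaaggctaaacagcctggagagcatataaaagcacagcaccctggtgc
Nts: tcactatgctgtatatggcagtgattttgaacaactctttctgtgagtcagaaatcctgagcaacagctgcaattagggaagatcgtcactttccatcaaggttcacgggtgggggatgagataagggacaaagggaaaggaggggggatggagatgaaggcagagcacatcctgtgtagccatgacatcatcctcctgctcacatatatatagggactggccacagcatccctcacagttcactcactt
Cck: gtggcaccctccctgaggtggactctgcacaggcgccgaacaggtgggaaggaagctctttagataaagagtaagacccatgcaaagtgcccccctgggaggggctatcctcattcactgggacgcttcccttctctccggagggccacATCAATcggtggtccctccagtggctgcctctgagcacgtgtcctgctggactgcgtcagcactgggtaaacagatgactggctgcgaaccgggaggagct
Sct: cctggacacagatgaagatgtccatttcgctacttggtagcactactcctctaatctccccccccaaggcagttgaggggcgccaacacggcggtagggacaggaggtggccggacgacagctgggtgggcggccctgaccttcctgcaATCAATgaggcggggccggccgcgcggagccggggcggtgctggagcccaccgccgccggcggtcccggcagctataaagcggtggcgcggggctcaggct
All 10 genes matched, with 15 promoters between them. Both strands were searched. ATCAAT was in 3 of the 15 (Cck, Sct and Sst), where 6.72% of 32851 promoters hold it; in Cck and in Sct it lay 101 to 96 bases upstream. TGACGT was in 2 of the 15 (Sst and Chga), where 6.47% of all hold it. CANNTG, the E-box bound by basic helix-loop-helix factors, was in 11 of 15, where 66.2% of all hold it. In the 4 printed windows no match of one motif overlapped another, and those of Gcg and Nts held neither ATCAAT nor TGACGT, which says only that these letters are not there. A match is a string of letters in the window, not a binding site.

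Most of the set was lower at day 30 than at day 15, in both genotypes. In knockout, 7 of 10 passed and all 7 were lower (Nts, Cck, Gip, Sst, Pyy, Tph1 and Chga), where 31.0% of all genes passed, 17.2% lower. In wild type, 6 of 10 passed and all 6 were lower (Gcg, Gip, Sst, Pyy, Tph1 and Chga), where 29.3% of all genes passed, 17.0% lower. The median age difference of the 10 genes was -0.57 in knockout and -0.67 in wild type, beside 0.03 and 0.02 over all genes. Gip, Sst, Pyy, Tph1 and Chga were lower in both.

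**Figure D3:**
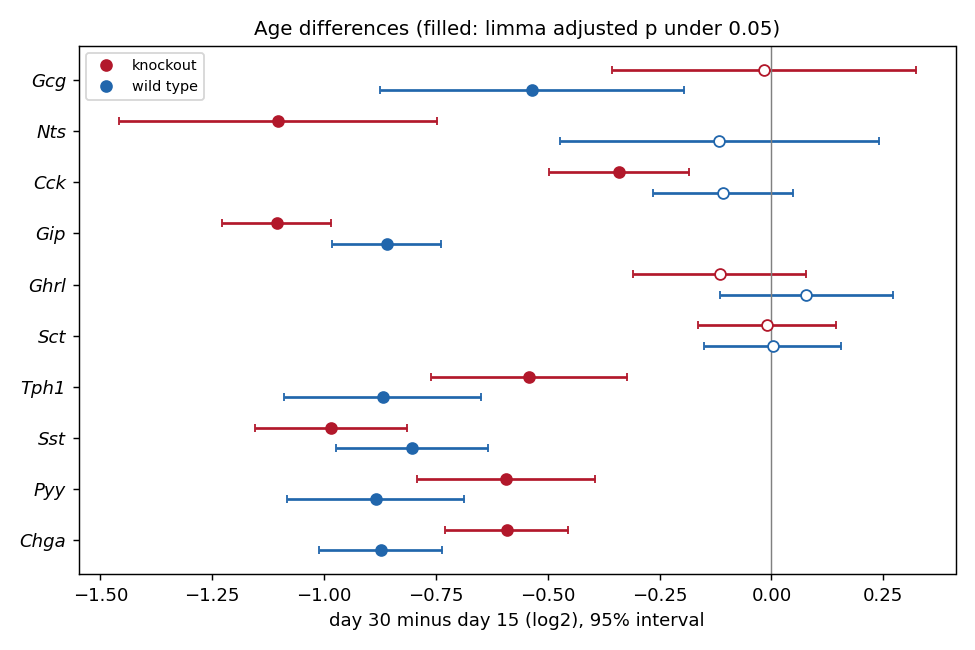
Day 30 minus day 15 difference (log2) of each gene in knockout (red) and wild type (blue), with the 95% interval; filled points passed the test. Gip (-1.11) and Nts (-1.10) have the lowest values in knockout, and Sct and Ghrl lie near 0 in both genotypes.

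Gip changed by -1.11 in knockout (10.55 ± 0.054 at day 30, 11.66 ± 0.025 at day 15) and by -0.86 in wild type (10.08 ± 0.063 and 10.94 ± 0.067; SD, n = 3 arrays each; adjusted p = 2.25e-08 and 2.17e-07). Sst read 9.84, 9.61 and 9.50 at day 30 and 10.66, 10.61 and 10.64 at day 15 in knockout, and 9.62, 9.77 and 9.75 at day 30 and 10.50, 10.58 and 10.47 at day 15 in wild type. Its differences were -0.98 in knockout and -0.80 in wild type. Pyy read 8.85, 8.56 and 8.65 at day 30 and 9.21, 9.25 and 9.38 at day 15 in knockout, and 8.50, 8.82 and 8.62 at day 30 and 9.54, 9.59 and 9.46 at day 15 in wild type, with differences of -0.59 and -0.88. Chga read 8.96, 8.96 and 8.77 at day 30 and 9.45, 9.46 and 9.56 at day 15 in knockout, and 8.79, 8.85 and 8.90 at day 30 and 9.73, 9.69 and 9.74 at day 15 in wild type, with differences of -0.59 and -0.87. None of these day 30 arrays overlapped the day 15 arrays of its genotype; over the 10 genes, 7 did not overlap in knockout, where 42.8% of all genes did not, and 6 in wild type, where 43.8% did not. Tph1 differed by -0.54 in knockout (adjusted p = 0.00118) and by -0.87 in wild type (adjusted p = 2.7e-05). Beside it, 4 of the 10 mast cell markers were lower at day 30 in knockout (median -0.18, 1 of 10 above 0) and 3 of 10 in wild type (median -0.01, 4 of 10 above 0), and their part in the Tph1 age difference was not tested. Nts differed by -1.10 in knockout (adjusted p = 0.000207) and by -0.12 in wild type (adjusted p = 0.642). Cck differed by -0.34 in knockout (adjusted p = 0.0028) and -0.11 in wild type (adjusted p = 0.295). Gcg differed by -0.02 in knockout (adjusted p = 0.947) and -0.53 in wild type (adjusted p = 0.0205), a call lost without wild type day 15 replicate 1, wild type day 15 replicate 2 or wild type day 30 replicate 3 (adjusted p up to 0.0880). Ghrl and Sct passed in neither. Whether an age difference itself depended on genotype is a separate test, given further on, in which none of these genes passed.

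Smooth muscle RNA moved with age as well, and in part with genotype. All 12 smooth muscle markers were lower at day 30 in both genotypes, their mean being 10.06 at day 30 and 10.56 at day 15 in knockout, and 10.11 and 10.78 in wild type. Between genotypes 0 of the 12 passed at day 30 (median -0.06, 3 of 12 above 0). At day 15 all 12 had a lower mean in knockout (median -0.21), and 3 of them passed (Myh11, Tpm2 and Myl9, -0.30 to -0.31); none passed for the difference between the genotype effects, where all 12 values were positive (median 0.22). Enteric neuron markers were lower at day 30 in 6 of 10 in knockout and 7 of 10 in wild type. Between genotypes 1 of the 10 passed, Ret at day 15, which read 9.31, 9.47 and 9.56 in knockout, against 8.17, 8.40 and 8.30 in wild type (1.15, adjusted p = 0.000189). Ret did not speak for the list: the median difference of the 10 was -0.12 at day 15 (3 of 10 above 0) and -0.01 at day 30 (5 of 10 above 0). Of 12 epithelial markers, 6 were higher and 1 lower at day 30 in knockout, and 8 higher and 1 lower in wild type. Between genotypes 1 of the 12 passed at day 30, lower in knockout (6 of 12 above 0). At day 15 none passed, but 11 of 12 were above 0 (median 0.10). Their mean there was 11.58 to 11.60 on knockout arrays and 11.50 to 11.52 on wild type arrays. Of all genes, 17.2% were lower and 13.8% higher at day 30 in knockout, and 17.0% and 12.3% in wild type. Between genotypes 1.98% of all genes passed at day 30 and 3.83% at day 15. With the smooth muscle mean of each array as a covariate, 1 of the 10 genes (Gip) passed between ages in knockout and 0 in wild type, where 223 and 37 of all 19938 genes passed, against 6178 and 5849 without it. Gip in wild type was at -0.83 with the covariate and at -0.86 without it, and the sign of others turned: Gcg between ages in wild type became 0.00146 and Cck in knockout 0.16. At day 15, Nts, Cck and Gip kept their genotype call under this covariate (3 of 10), where 78 of all genes passed, against 764 without it. With the epithelial mean as covariate, 0 of 10 passed between genotypes at day 15, where 11 of all genes did; Gip was at 0.71 and Tph1 at -1.14, against 0.72 and -0.88 without it. Gcg between ages in wild type turned to 0.62 under it. This mean varied within a group by an SD of 0.0080 to 0.0194, and the SE of the Gcg genotype difference at day 15 was 0.459, with the difference at 1.62. The part of muscle or epithelial share in these differences was not otherwise tested.

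Some stomach and ileal or distal markers passed between genotypes, while no pancreatic acinar or islet marker did. The medians of some lists were below 0. Over all genes, 1.98% passed at day 30 and 3.83% at day 15. Of 10 ileal and distal markers, 1 passed at each age, Cyp2c55, which was lower in knockout (-1.88 at day 30 and -1.41 at day 15). Of 8 pancreatic acinar markers none passed at either age, with median differences of -0.38 at day 30 (0 of 8 above 0) and -0.28 at day 15 (1 of 8 above 0). Among them Cela1 at day 15 read 10.81, 10.15 and 10.82 in knockout, against 11.57, 11.63 and 11.74 in wild type, a difference of -1.06 (adjusted p = 0.0513). The 9 stomach markers had a median difference of 0.05 at day 30 and -0.40 at day 15, and 2 and 1 of them were lower in knockout; Gkn3 was lower at both ages, by -0.33 (adjusted p = 0.0152) and -0.62 (adjusted p = 0.00011). The part of pancreas and stomach RNA in the differences of the hormone genes was not tested.

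**Figure D4:**
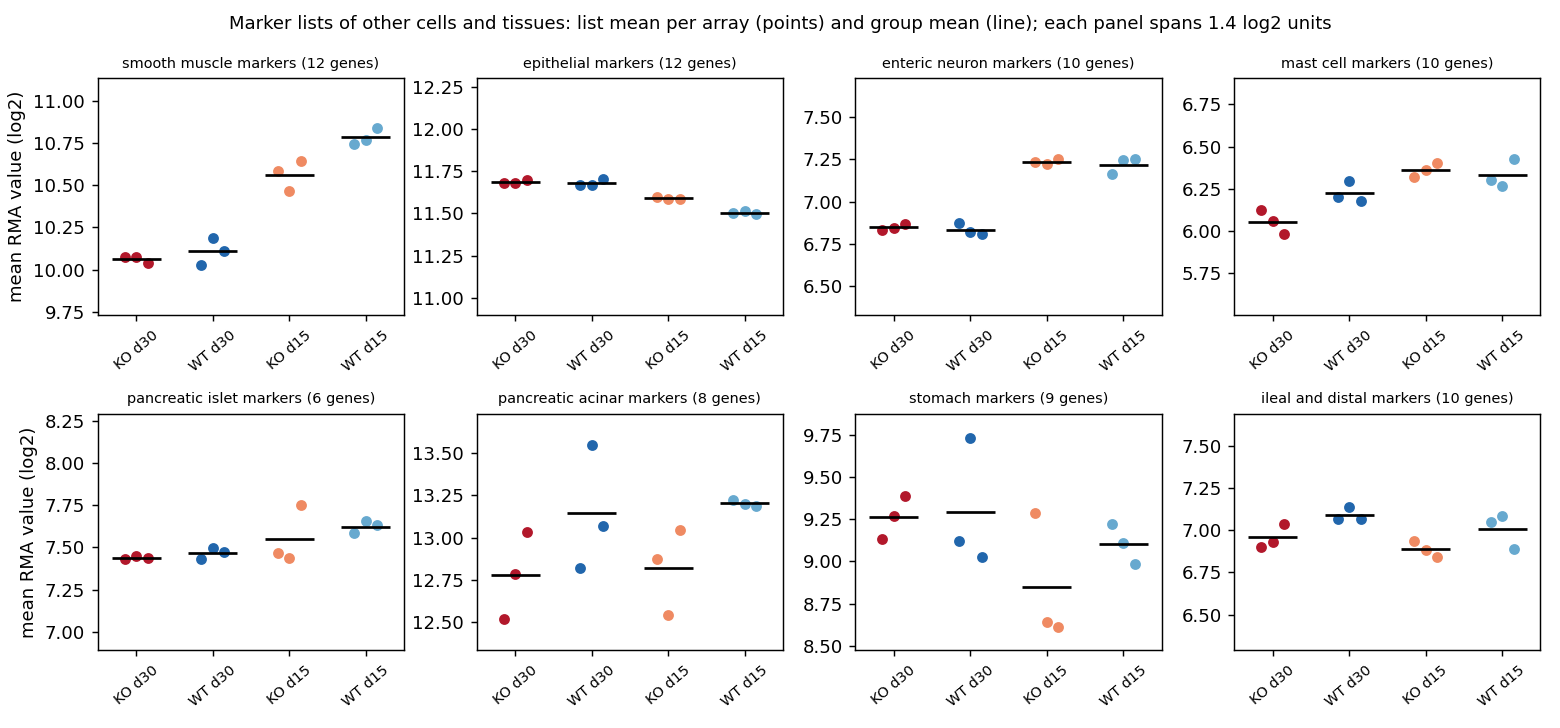
Mean log2 value of marker lists of other cells and tissues on each array (points) with the group mean (line), groups as above; each panel spans the same range of log2 units. Smooth muscle and enteric neuron markers lie lower at day 30 in both genotypes, and one knockout day 15 array stands apart in stomach and another in islet markers.

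Whether the genotype difference changed between ages was tested directly, as the day 30 difference minus the day 15 difference. None of the 10 genes passed (0 of 10, limma; 0.456% of all genes did, 0.231% upward and 0.226% downward), and 7 had an unadjusted p under 0.05. Nts had the lowest adjusted p (0.114), at -0.99 (95% interval -1.49 to -0.48), and passed without knockout day 15 replicate 1 (-1.23, adjusted p = 0.00259). Gcg had 0.52 (0.04 to 1.00; adjusted p = 0.515), Gip -0.25 (adjusted p = 0.305) and Chga 0.28 (adjusted p = 0.291).

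Among genes of the machinery shared by enteroendocrine cells, more passed between ages than between genotypes, as over all genes. Of all genes 31.0% passed between ages in knockout and 29.3% in wild type, against 1.98% between genotypes at day 30 and 3.83% at day 15. Of 16 genes of granules and prohormone processing, 0 passed at day 30, where 1.98% of all genes did, and 2 were lower at day 15, where 2.03% of all genes were (Rab3c, a vesicle GTPase, by -0.61, and Scg3, a granule sorting protein, by -0.28). Between ages 11 of the 16 were lower in knockout and 10 in wild type, where 17.2% and 17.0% of all genes were, with medians of -0.33 and -0.26, beside 0.03 and 0.02 over all genes. Cpe, the carboxypeptidase that trims prohormones, differed by -0.55 and -0.85, and Pam, which amidates peptides, by -0.62 and -0.65. Of 18 transcription factors of the enteroendocrine lineage, none passed between genotypes at day 30 and only Neurod1 at day 15 (-0.40, adjusted p = 0.0440; named after its value was seen). In each genotype 7 of the 18 were lower and 1 higher at day 30, where 17.2% of all genes were lower and 13.8% higher in knockout, and 17.0% and 12.3% in wild type. Etv1 differed by -0.85 in knockout and -0.88 in wild type, Rfx6 by -0.70 and -0.82, Isl1 by -0.52 in both, and Pdx1 by 0.44 and 0.47.

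Among genes that modify, degrade or sense hormones, and other gut peptides, between 1 and 3 genes per list passed between genotypes at an age. Counts this small are no result about a list as a group, and the genes are given singly. At day 30, 1 of 14 other peptides, 1 of 9 amine genes, 2 of 5 enzymes and 1 of 14 sensors passed, where 1.98% of all genes did. At day 15, 2 of 14, 1 of 9, 3 of 5 and 2 of 14 passed in the same order, where 3.83% of all genes did. Among the other gut peptides, Penk (enkephalin precursor) differed at day 15 by -1.32 and Ucn3, named after its value was seen, by -0.41, and Adm at day 30 by -0.35. Among the genes of amine synthesis and storage, Maoa, which degrades serotonin, was higher in knockout by 0.63 at day 30 and by 1.37 at day 15 (11.60 and 9.56 in knockout, 10.98 and 8.19 in wild type). Slc18a1, the vesicular transporter of enterochromaffin cells, had no called genotype difference but was lower at day 30 (-1.84 in knockout and -1.76 in wild type). Among the enzymes, Dpp4, which inactivates GLP-1 and GIP, was higher by 0.59 at day 30 and 0.39 at day 15, and Enpep by 0.90 and 0.97; Mme was lower at day 15 (-0.78). Among the sensors of the lumen, Slc5a1, the glucose cotransporter, was higher by 0.29 at day 30 and 0.25 at day 15, and Trpa1, an irritant channel of enterochromaffin cells, differed by -0.62 at day 30 (adjusted p = 0.0926) and -0.85 at day 15 (adjusted p = 0.0137). These are values of whole duodenum, and which cells carried the RNA of Dpp4, Enpep or Slc5a1 was not tested.

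Of 21 receptors of these hormones, 1 passed between genotypes at each age, where 1.98% of all genes passed at day 30 and 3.83% at day 15. Such a count is no result about receptors as a group. The gene that passed was the GLP-1 receptor gene Glp1r both times, given here as a single gene. It lay between 8.95 and 9.02 on the 3 knockout arrays at day 30, against 9.41, 9.64 and 9.40 in wild type, and 8.85, 8.59 and 8.34 in knockout at day 15, against 9.66, 9.56 and 9.63 in wild type. All knockout arrays lay below the wild type arrays of their age, and the mean difference was -0.49 at day 30 (adjusted p = 0.0321) and -1.02 at day 15 (adjusted p = 0.000137). The gene of the ligand's precursor, Gcg, was higher in knockout at both ages, and a relation between the 2 genes was not tested. The remaining 20 receptors did not pass at either age.

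The genes whose 4 group means ran most like those of a member were listed, by the root-mean-square (RMS) difference of centred group means over the 4 groups, for the 4 members that span at least 1 log2 unit. For Tph1 they were Trpa1 (0.0334), Stxbp5l (0.0534) and Vtn (0.0954). Stxbp5l differed by -0.60 at day 30 and -0.74 at day 15 between genotypes. For Gcg they were Slc5a12 (0.224), Bst1 (0.254) and Guca2a (0.275); Guca2a encodes the enterocyte and goblet cell peptide guanylin and was higher in knockout by 1.64 at day 30 and 1.83 at day 15. For Nts they were Slc5a12, Slc46a3 and Slfn4, at 0.264 to 0.273 (Slfn4 itself did not pass between genotypes, adjusted p = 0.950 at day 30 and 0.227 at day 15), and for Gip Tut4, Naip5 and Naip6, at 0.0705 to 0.109. Pyy and Chga, named after their values were seen, were each other's nearest at 0.0080. The genes are described by their profile over 4 group means only.

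**Figure D5:**
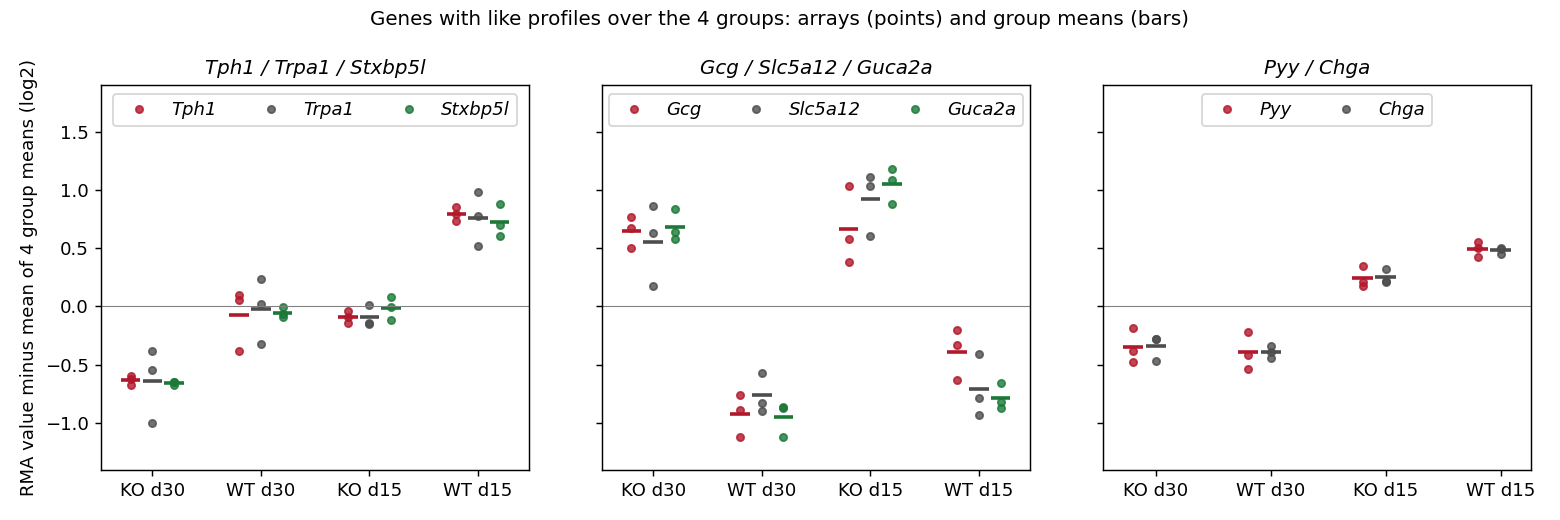
Log2 value of each array (points) and group mean (bars), with each gene centred on the mean of its 4 group means. Trpa1 and Stxbp5l follow Tph1, and Pyy and Chga lie almost on one another. Slc5a12 and Guca2a share the direction of the Gcg genotype difference but not its course over age. Between ages Gcg differed by -0.02 in knockout and -0.53 in wild type, Slc5a12 by -0.37 and -0.06, and Guca2a by -0.36 and -0.17.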

How the data were processed

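Total RNA of duodenum was measured on a mouse whole-transcript gene array, 12 samples in 4 groups of 3. The deposited values are log2 expression values made with RMA in Affymetrix Expression Console 1.1, per the submitters' processing notes (the table names no log base; base 2 is RMA's scale). Its quantile normalization forces all arrays onto one distribution and so hides a shift common to the bulk of genes. Of 35557 features, 21789 had exactly 1 gene symbol, 1621 several and 12147 no listed gene. Where a gene had several features (999 genes) the one with the highest mean was kept, which left 19938 genes. RefSeq held 21698 of the features' gene identifiers and changed 0 symbols. No source read here names the annotation's genome build. The highest correlation between arrays was 0.995, and no array repeated another. The labels give no scan date or other batch.

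A model with 4 group means (8 residual degrees of freedom) was fitted to all genes with limma 3.58.1 in R 4.3.3 and moderated with eBayes. P-values were adjusted by Benjamini-Hochberg over 19938 genes within a comparison and called at 0.05. Group means are given with the SD over 3 arrays and differences with moderated SEs; 95% intervals are of single genes, not adjusted. Arrays carry no counts, so their number limits the precision.

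The members and gene lists were chosen with earlier results of these data known. All 10 members are named; from the other lists, up to 4 genes with the smallest adjusted p in a comparison of 2 groups, and defining markers of other tissues, could be named. The 3 genes nearest to a member in centred group means are named where the member spans at least 1. Promoter letters are from RefSeq (GRCm38.p6), and the motifs were searched on both strands. Alternatives left out 1 array at a time, or changed moderation, filtering, weighting, covariates, centring and the feature rule. In simulated arrays for knockout against wild type at day 15 over 19938 genes, 79.1% of 67 genes changed by 0.5 were called in the right direction, 100% of 67 changed by 1, and 98.5% of 66 changed by 2, with 9 unchanged genes called. The simulated noise was normal and independent between genes, around the same mean in all groups, without age differences or shared array deviations. These rates need not hold for the real arrays.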

Additional observations from a re-analysis of the deposited data

Results flagged for a closer look

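In 3 genes of the lists, none of them one of the 10, the genotype difference was not the same at both ages (day 30 difference minus day 15 difference, limma over all genes). Every gene of all lists was searched for this, the marker lists of other tissues included, and 0.456% of all genes passed. The count is no result about the lists. Penk had 1.28 (SE 0.18, adjusted p = 0.0059): knockout and wild type differed by -0.04 at day 30 (adjusted p = 0.961) and by -1.32 at day 15 (adjusted p = 6.9e-05), where the knockout arrays read 7.53, 7.37 and 7.34 and the wild type arrays 8.64, 8.67 and 8.88. Mme, a peptidase gene, had 0.74 (adjusted p = 0.031), with -0.05 at day 30 and -0.78 at day 15. Cblif, the intrinsic factor gene of the stomach, had -0.82 (adjusted p = 0.033), with -0.56 at day 30 (adjusted p = 0.0147) and 0.26 at day 15 (adjusted p = 0.236).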

How the results depend on the processing

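The 50 gene differences and the 5 counts were recomputed under 10 other settings and with each of the 12 arrays left out. Called genes lost their call in 64 recomputations, 34 of them under a tissue covariate and 26 with an array left out, and calls appeared in 5. Leaving out 1 array gave 4 to 7 called genes for knockout against wild type at day 30, 5 to 8 at day 15, 7 to 7 between ages in knockout, 5 to 6 in wild type and 0 to 1 for the difference between genotype effects. With only the arrays compared, 4 passed at day 30 (Cck, Sct and Tph1 lost at adjusted p = 0.0710, 0.141 and 0.0789). The epithelial covariate left 0 genotype calls at day 15, 1 age call in knockout and 0 in wild type; the smooth muscle covariate left 3, 1 and 0. Signs turned in 31 recomputations, 3 of them of called differences: Gcg between ages in wild type under both tissue covariates (-0.53, called, in the fit without them) and Cck between ages in knockout under the smooth muscle covariate (-0.34, called, without it). With array medians subtracted the age difference in knockout became 0.0326 for Gcg and 0.0397 for Sct, and with array weights 0.0099 for Gcg. The epithelial covariate gave age differences of 0.61 for Gcg in knockout, and 0.62 for Gcg, 1.13 for Nts and -0.17 for Sct in wild type, and differences between genotype effects of -0.00706 for Gcg and 0.0654 for Sct. The smooth muscle covariate gave 0.38 for Gcg, 0.16 for Cck and 0.28 for Sct in knockout, and 0.00146 for Gcg, 0.16 for Nts, 0.58 for Cck and -0.0311 for Ghrl in wild type. With an array left out, values spanned -0.155 to 0.0136 (Sst) and -0.0398 to 0.127 (Pyy) between genotypes at day 30, -0.157 to 0.167 (Gcg) and -0.0613 to 0.0221 (Sct) between ages in knockout, -0.0485 to 0.0707 (Sct) in wild type, and -0.0807 to 0.0385 (Sct) for the difference between genotype effects. Whether replicate numbers pair some of the samples was not settled. Of 18 pairs of arrays with the same number, 7 correlated over 0.1 (-0.25 to 0.36). In 13 of 36 comparisons of an array with another group the same number correlated best. Knockout and wild type at day 15 correlated at 0.36, -0.01 and 0.26 for replicates 1, 2 and 3. With the replicate number as a block, 6 genes passed at day 30 (Sct lost, adjusted p = 0.0581), 7 at day 15, 7 between ages in knockout and 6 in wild type, and it changed no other call. The cause of these changes was not tested. For Nts, the signal over background limits the precision.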
